A study of Homo sapiens with 12 samples.

Results

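The genes described here encode the proteins of the cytosolic ribosome. They were taken by symbol: RPL or RPS with a number, the stalk proteins RPLP0, RPLP1 and RPLP2, RPSA, and FAU, which encodes a small subunit protein joined to a ubiquitin-like domain. RPS27L and the pseudogenes were left out. The rule found 87 of the 63299 genes listed. It reads symbols only, but the members were chosen with earlier results of these data known. RPL26 was kept apart, which left 51 other large subunit genes and 35 small subunit genes. The cells were LNCaP-shPRMT5, a line of the human prostate cancer cell line LNCaP in which doxycycline switches on a hairpin RNA against the arginine methyltransferase PRMT5. There were 4 groups of 3 libraries. Irradiated knockdown cells had doxycycline at 1 µg/mL, renewed every 48 h, then 2 Gy of radiation, and were collected 24 h after it. Irradiated control cells had the same dose without doxycycline. Non-irradiated knockdown cells had doxycycline and 0 Gy, and non-irradiated control cells had neither. Every library came from cells carrying the hairpin, and doxycycline was given with every knockdown, so an effect of the drug and an effect of PRMT5 loss cannot be told apart. The irradiated and the non-irradiated libraries were deposited in separate tables, so irradiation and any other difference between the tables cannot be told apart either.

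A ribosome holds 1 copy of nearly every one of these proteins, and their messenger RNAs are among the most abundant in a dividing cell. Most of these messages begin with a cytosine followed by an unbroken run of pyrimidines, the terminal oligopyrimidine tract, through which the kinase mTOR and the binding protein LARP1 control their translation and stability. Some ribosomal proteins also act outside the ribosome after stress. RPL5 and RPL11 bind MDM2, the ubiquitin ligase of p53, and RPL26 is known to bind the messenger RNA of p53 and to raise its translation after DNA damage. PRMT5 is known to methylate RPS10.

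Of the 87 genes, 69 had a start site in the RefSeq promoter table for GRCh38.p14, with 85 start windows of 30 bases (15 before the start and 15 from it on). The windows printed here belong to members whose values are described further on, and capitals mark a pyrimidine run, defined as a C followed by at least 4 letters that are all C or T, with its first C within 5 bases of the annotated start. The gene's own strand was read, and no other motif was searched. RPL26 (chr17:8383179-8383208, minus strand), RPL38 (chr17:74203663-74203692, plus strand), RPL39 (chrX:119791616-119791645, minus strand) and RPL13 (chr16:89560667-89560696, plus strand) are shown as genes with such a run (for RPL13, the one of its 3 windows that holds it). RPL17 (chr18:49492451-49492480, minus strand), RPS15 (chr19:1438381-1438410, plus strand), RPL10L (chr14:46651767-46651796, minus strand) and RPL7L1 (chr6:42879601-42879630, plus strand) are shown as genes with none at the annotated start.
RPL26: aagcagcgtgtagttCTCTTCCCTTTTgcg
RPL38: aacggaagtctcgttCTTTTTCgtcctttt
RPL39: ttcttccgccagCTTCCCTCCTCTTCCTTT
RPL13: ttgcggggccgCTTCCTTTCCgctcggctg
RPL17: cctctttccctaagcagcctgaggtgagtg
RPS15: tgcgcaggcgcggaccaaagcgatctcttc
RPL10L: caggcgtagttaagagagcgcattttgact
RPL7L1: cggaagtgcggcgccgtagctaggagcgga
A run lay near the start in 70.6% of the ribosomal protein windows, against 21.1% of the 35116 windows of all promoters. A C at the start base itself, followed by at least 4 letters C or T, was found in 57.6% of the ribosomal protein windows, against 4.07% of all. It was found in 8.16% of the 49 windows of ribosome assembly factors and in 7.06% of the 85 windows of mitochondrial ribosomal proteins.

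Counts per library ranged from 14801939 to 33158865, and the filter on low counts kept 17191 genes. Of the 87 members, 84 passed it. RPL3L, RPL39L and RPS4Y2 did not, with at most 3 counts in any library. All 10 luminal prostate markers passed, among them KLK3, while 1 of 6 leukocyte, 4 of 6 fibroblast and 1 of 4 basal epithelial markers did. PRMT5 was at 31.3, 26.9 and 24.9 CPM (counts scaled to library size and by TMM, a correction for library composition) in irradiated knockdown cells, against 230, 187 and 187 CPM in irradiated controls. Without irradiation it was at 26.6, 30.8 and 32.8 CPM in knockdown cells, against 186, 190 and 198 CPM in controls. PRMT5 was thus at 13.8% of the control level with irradiation and at 15.7% without it, and the exact permutation test (2-sided) gave p = 0.1 at each dose, the smallest that 3 libraries a group allow.

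Ribosomal protein messages took a larger share of all gene counts in the irradiated libraries. The share was 9.27%, 7.72% and 8.22% in irradiated knockdown cells and 9.84%, 8.05% and 8.22% in irradiated controls. It was 5.76%, 5.87% and 6.50% in non-irradiated knockdown cells and 5.95%, 6.91% and 6.61% in non-irradiated controls. The lowest irradiated library was above the highest non-irradiated one. Without RPL26 the group means were 8.36% ± 0.783, 8.66% ± 0.983, 6.04% ± 0.400 and 6.48% ± 0.493 (SD, n = 3) in the same order of groups, so RPL26 contributed little to the difference. The share of mitochondrially encoded genes was also larger, at 6.55% to 7.43% in irradiated knockdown cells and 6.55% to 7.22% in irradiated controls, against 5.98% to 6.19% in non-irradiated knockdown cells and 5.23% to 5.94% in non-irradiated controls. The 20 genes of G2/M and mitosis had a median log2 fold change with irradiation of -0.51 in knockdown cells and 1.47 in controls. In knockdown cells 0 were called (edgeR adjusted p under 0.05), and irradiated and non-irradiated libraries overlapped for all 20. In controls 1 was called, and the irradiated libraries lay higher without overlap for 13. Over all tested genes 3.58% were called in knockdown cells and 2.26% in controls, and 13.7% lay higher without overlap in controls. The part of the mitochondrially encoded and the mitotic genes in the results was not tested. Both replicate 1 libraries of the irradiated table stood above their partners. In the irradiated control of that number 81 of the 83 tested members other than RPL26 were above their group mean, and in the irradiated knockdown 77 were. The mean level of the luminal markers was also highest in these 2 libraries, at 9.48 log2 CPM in the knockdown and 9.72 in the control, against 9.08 to 9.30 in the other irradiated libraries, and the TMM factors were lowest, at 0.914 and 0.900. Their part in the results below was not tested beyond leaving the pair out.

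**Figure D1:**
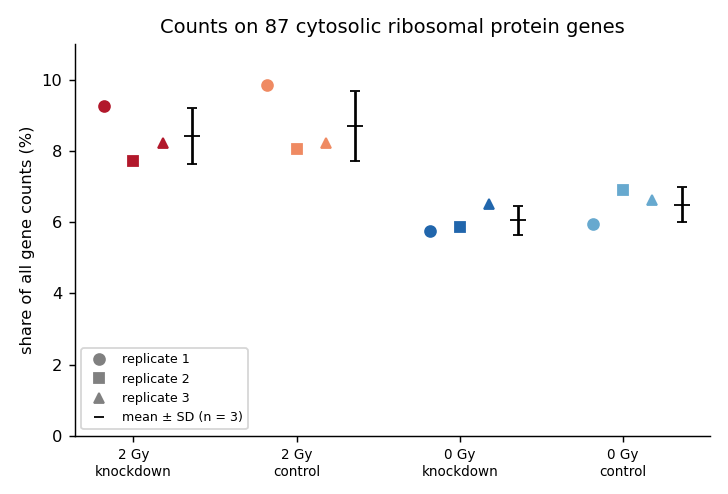
Share of all gene counts (%, y axis) on the 87 cytosolic ribosomal protein genes in each of the 12 libraries, by group, with the mean and SD of 3 libraries beside the points. The 6 irradiated libraries sit between 7.72% and 9.84%, above all 6 non-irradiated libraries, and replicate 1 is highest in both irradiated groups.

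RPL26, a large subunit protein, differed more between the irradiated and non-irradiated libraries than any other member. It was at 542, 435 and 460 CPM in irradiated knockdown cells, against 37.5, 37.5 and 34.3 CPM in non-irradiated knockdown cells. It was at 537, 448 and 412 CPM in irradiated controls, against 39.0, 35.97 and 34.1 CPM in non-irradiated controls. The groups were far apart, with no library between 39.0 and 412 CPM. The difference was 13.1-fold in knockdown cells (log2 fold change 3.72 ± 0.14 SE, edgeR quasi-likelihood test, adjusted p = 1.23e-07) and 12.8-fold in controls (3.68 ± 0.14, adjusted p = 1.37e-07). By p-value it ranked 1 of 17191 genes in both comparisons, and by fold change it ranked 16 in knockdown cells and 17 in controls. Leaving out each library in turn kept the log2 fold change between 3.62 and 3.78 in knockdown cells and between 3.56 and 3.76 in controls, past the threshold every time.

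PRMT5 knockdown came with no detectable difference in RPL26. The log2 fold change of knockdown over control was 0.04 ± 0.13 (SE) with irradiation and 0.00 ± 0.13 without it, with edgeR adjusted p-values of 0.969 and 0.992. The gene lies at chr17:8377520-8383213 on the minus strand in GRCh38, as ENSG00000161970.12. Another listed gene, RP11-849F2.7, covers 14.6% of its exon positions and was itself at 0.165 to 1.08 CPM. Of its 50-base words, 11.6% are shared with other genes. Its 9 listed pseudogenes together held 2.88 to 6.75 CPM in irradiated knockdown cells, 2.58 to 4.08 CPM in irradiated controls, 2.65 to 3.14 CPM in non-irradiated knockdown cells and 2.86 to 3.96 CPM in non-irradiated controls, ranges that overlapped. Its paralog RPL26L1 was not called in either irradiation comparison, although within each its irradiated libraries lay above the non-irradiated ones (log2 fold change 0.56 ± 0.22 SE in knockdown cells and 0.69 ± 0.22 in controls, edgeR adjusted p = 0.170 and 0.105). The ratio of RPL26 to RPL26L1 reads was 7.15 to 8.77 in irradiated knockdown cells, 6.68 to 9.51 in irradiated controls, 0.763 to 0.997 in non-irradiated knockdown cells and 0.888 to 1.24 in non-irradiated controls. Some pseudogenes of other members differed between the tables. RPS2P5 was at 374 to 535 CPM in the irradiated libraries, against 93.2 to 122 CPM in the non-irradiated ones. RPL9P9 was at 67.1 to 101 CPM, against 121 to 161 CPM, and RPL13AP25 at 1.44 to 6.68 CPM, against 12.0 to 15.2 CPM. RPL41P1 overlapped, at 49.3 to 73.5 CPM against 72.4 to 95.5 CPM. The part of read assignment in the RPL26 difference was not tested.

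Most other ribosomal protein genes were also higher in the irradiated libraries, at a median of 1.57-fold in knockdown cells and 1.53-fold in controls, and no member was called lower. In knockdown cells 36 of 83 were called higher and 0 lower (adjusted p under 0.05), where 3.58% of all tested genes were called in either direction, 2.18% higher and 1.4% lower. In controls 21 were called higher and 0 lower, where 2.26% of all genes were called, 1.38% higher and 0.878% lower. The median log2 fold change was 0.65 in knockdown cells, with 80 of 83 above 0, and 0.62 in controls, with 82 above 0. Over all tested genes the median was 0.00 in both. All 21 members called in controls were also called in knockdown cells, which is 100% of the control list and 58.3% of the knockdown list. These 2 comparisons have no library in common, but the 2 lists are not independent. Both came from 1 fit with a shared estimate of the spread and compare the same 2 deposited tables. Same-numbered control and knockdown libraries of a table also deviated together. In each comparison the irradiated libraries lay above every non-irradiated one for 65 members, where 15.8% of all genes did so in knockdown cells and 13.7% in controls. Of these, 64 members were shared. They lay below every non-irradiated library for 0 members, where 14% and 13.9% of all genes did so. The subunits had similar medians: the value was 0.69 for 49 large and 0.64 for 34 small subunit genes in knockdown cells, and 0.62 for both in controls.

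**Figure D2:**
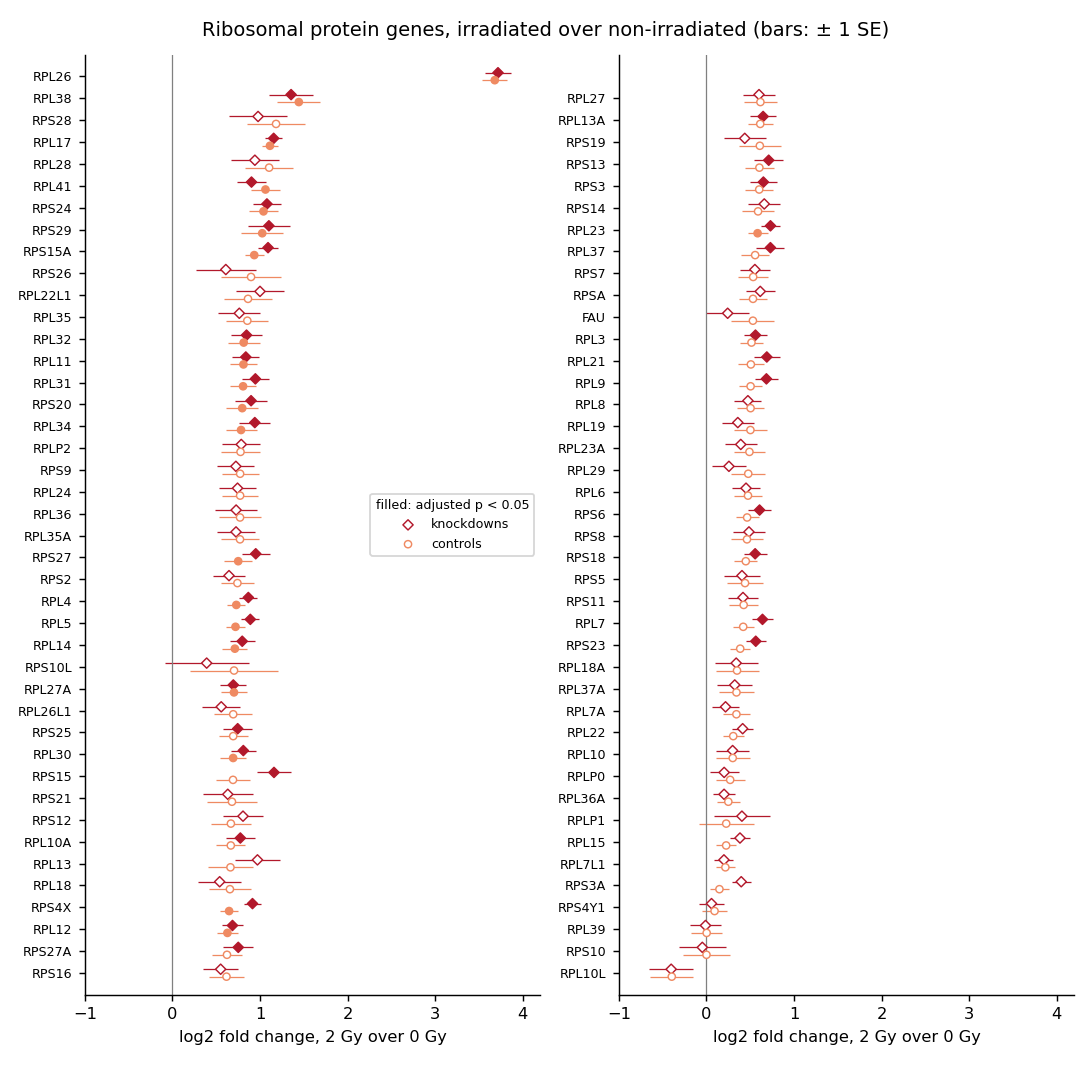
Log2 fold change of 2 Gy over 0 Gy (x axis) with its standard error for 83 of the 84 tested ribosomal protein genes, in knockdown cells (diamonds) and in controls (circles), sorted by the value in controls. Filled symbols passed an adjusted p of 0.05. RPL26 stands at 3.72 and 3.68, most others lie between 0 and 1.5, and RPL10L is lowest at -0.40 in both.

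RPL17, a protein at the rim of the exit tunnel of the large subunit, varied little between replicates. Its levels were 98.0, 102 and 102 CPM in irradiated knockdown cells, against 45.6, 49.0 and 41.2 CPM in non-irradiated ones. In controls they were 94.7, 94.8 and 95.5 CPM with irradiation, against 45.2, 44.9 and 41.6 CPM without it. The log2 fold changes were 1.16 ± 0.09 and 1.11 ± 0.09 (SE, edgeR adjusted p = 0.000197 and 0.000208). RPL17 shares 35.3% of its exon positions with other genes, chiefly the readthrough gene RPL17-C18orf32, which was itself at 0 to 0.220 CPM. RPS15A, a small subunit protein, was at 558 to 633 CPM in irradiated knockdown cells, against 267 to 288 CPM in non-irradiated ones, and at 555 to 644 CPM in irradiated controls, against 298 to 333 CPM in non-irradiated ones. Its log2 fold changes were 1.09 ± 0.11 and 0.93 ± 0.11 (SE, edgeR adjusted p = 0.000772 and 0.00269). RPL17 and RPS15A were called in both comparisons whichever of the 12 libraries was left out.

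RPL38, a large subunit protein whose loss in mice alters the translation of Hox messages, was at 608, 334 and 391 CPM in irradiated knockdown cells, against 172, 160 and 189 CPM in non-irradiated ones. In controls it was at 671, 386 and 385 CPM, against 163, 186 and 181 CPM. No library overlapped, but replicate 1 was far above its irradiated partners in both groups. The log2 fold change was 1.35 ± 0.25 in knockdown cells and 1.44 ± 0.25 in controls (SE, edgeR adjusted p = 0.0166 and 0.0174). The call was lost in controls without non-irradiated control 2 (adjusted p = 0.0865) or 3 (0.0903), and in knockdown cells without non-irradiated knockdown 1 (0.0581), 2 (0.0938) or 3 (0.0582). RPS28, a small subunit protein, had the same kind of spread, at 627, 274 and 370 CPM in irradiated knockdown cells and 675, 298 and 356 CPM in irradiated controls. Its non-irradiated levels were 189, 207 and 249 CPM in knockdown cells and 158, 228 and 199 CPM in controls. The groups were separated, yet RPS28 was not called, with log2 fold changes of 0.98 ± 0.33 and 1.18 ± 0.33 (SE, edgeR adjusted p = 0.124 and 0.0802).

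Of the ribosomal proteins that bind MDM2, RPL5 was called higher by 0.89 ± 0.10 log2 in irradiated over non-irradiated knockdown cells and by 0.72 ± 0.10 in controls (SE, edgeR adjusted p = 0.00205 and 0.00839). It was at 1418, 1265 and 1348 CPM in irradiated knockdown cells, against 680, 718 and 778 CPM in non-irradiated ones. In controls it was at 1376, 1310 and 1306 CPM, against 778, 824 and 820 CPM. RPL11 was at 951, 761 and 747 CPM in irradiated knockdown cells, against 439, 424 and 513 CPM in non-irradiated ones, and at 1056, 809 and 765 CPM in irradiated controls, against 464, 499 and 535 CPM in non-irradiated ones. The groups did not overlap for either gene. RPL11 was called as well, with log2 fold changes of 0.84 ± 0.15 and 0.81 ± 0.15 (adjusted p = 0.0168 and 0.0258). RPL4, a protein of the exit tunnel wall, had log2 fold changes of 0.87 ± 0.10 and 0.73 ± 0.10, and RPS24, a small subunit protein linked to Diamond-Blackfan anaemia, 1.08 ± 0.16 and 1.04 ± 0.16. RPL41, the smallest member, was at 0.90 ± 0.17 and 1.06 ± 0.17 (SE). RPL4, RPS24 and RPL41 were called in both comparisons with all libraries in the fit. In controls the calls of RPL5, RPS24 and RPL41 were lost without non-irradiated control 2 or 3, that of RPL4 without control 3, and that of RPL11 without non-irradiated control 1, 2 or 3 or irradiated control 2. In knockdown cells RPL5, RPL4 and RPS24 kept the call in each leave-one-out fit, whereas RPL11 lost it in 4 and RPL41 in 5 of the 12.

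Among members with other roles, RPS27A, which is made as a fusion with ubiquitin, was called in knockdown cells (log2 0.75 ± 0.17 SE, edgeR adjusted p = 0.0379) and was at 0.62 ± 0.17 in controls (adjusted p = 0.0778). FAU, the other fusion gene, was called in neither (0.24 ± 0.24 and 0.53 ± 0.25, adjusted p = 0.608 and 0.232). RPS6, the small subunit protein that S6 kinase phosphorylates, was called in knockdown cells (0.61 ± 0.13, adjusted p = 0.0338) and was at 0.46 ± 0.13 in controls (adjusted p = 0.0826). None of the 3 stalk proteins was called: RPLP0 was at 0.20 ± 0.17 and 0.27 ± 0.17, RPLP1 at 0.40 ± 0.32 and 0.23 ± 0.32, and RPLP2 at 0.79 ± 0.22 and 0.78 ± 0.22 (knockdown cells, then controls).

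At the low end stood RPL39, RPS10 and RPL10L. RPL39, a short protein in the wall of the exit tunnel, was at 381, 267 and 266 CPM in irradiated knockdown cells, against 305, 306 and 311 CPM in non-irradiated ones, and at 396, 330 and 247 CPM in irradiated controls, against 320, 297 and 355 CPM in non-irradiated ones. The groups overlapped, and the log2 fold changes were -0.01 ± 0.18 and 0.00 ± 0.18 (SE). Its start holds the longest pyrimidine run of the windows printed above. RPS10 had few reads for a ribosomal protein, at 6.99 to 12.1 CPM in irradiated knockdown cells, 6.21 to 11.5 CPM in irradiated controls, 7.75 to 10.5 CPM in non-irradiated knockdown cells and 7.33 to 9.55 CPM in non-irradiated controls. The readthrough gene RPS10-NUDT3 covers 28.8% of its exon positions and was itself at 0 to 0.0957 CPM, and 34.7% of its 50-base words are shared with other genes. RPL10L, a copy of RPL10 without introns that is best known from the testis, was at 9.63, 5.62 and 5.66 CPM in irradiated knockdown cells, against 7.88, 9.02 and 10.7 CPM in non-irradiated ones, and at 12.4, 8.51 and 8.94 CPM in irradiated controls, against 10.4, 15.4 and 13.3 CPM in non-irradiated ones. Its log2 fold change was -0.40 ± 0.25 in both comparisons (edgeR adjusted p = 0.379 and 0.362), and its groups overlapped. Without irradiated knockdown 1 the value in knockdown cells was -0.71 (adjusted p = 0.165). Without both irradiated replicate 1 libraries it was -0.71 with an adjusted p of 0.034, so RPL10L was then called lower in irradiated knockdown cells. Leaving out 1 of the other libraries of the comparison moved it to as little as -0.27 in knockdown cells and -0.26 in controls.

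**Figure D3:**
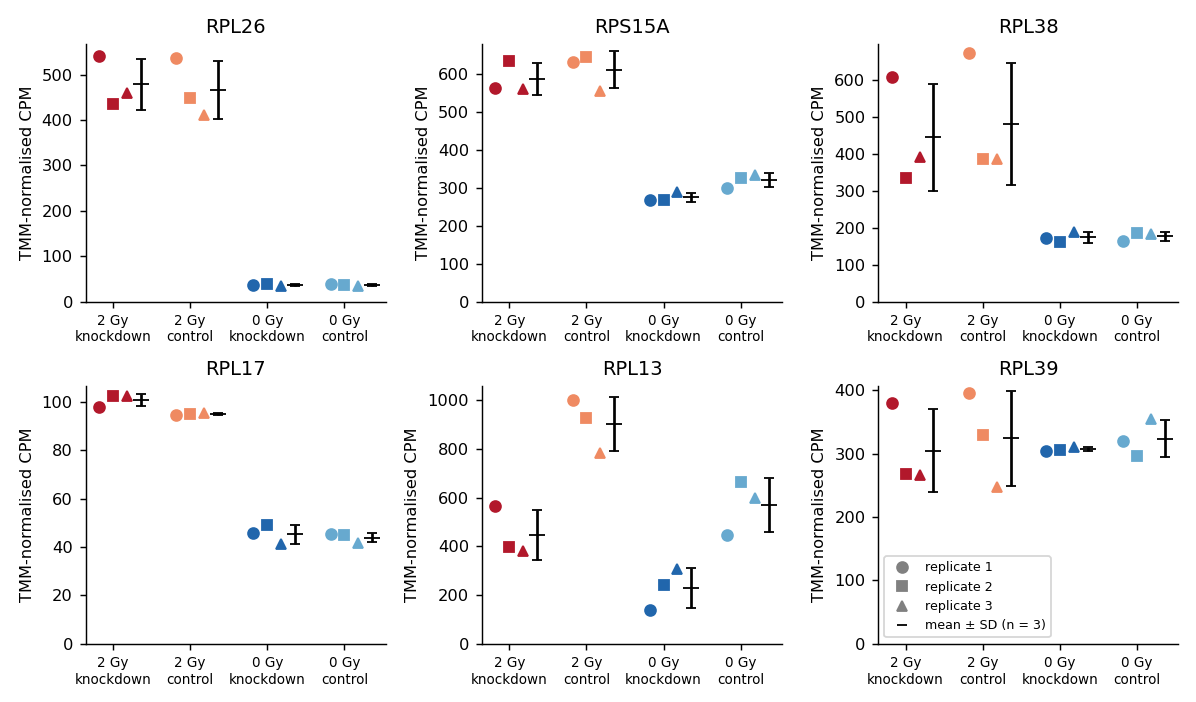
TMM-normalised CPM (y axis, from 0) of 6 ribosomal protein genes in each library, by group, with the mean and SD of 3 libraries. RPL26, RPS15A and RPL17 are separated by irradiation, RPL38 shows the high replicate 1 of both irradiated groups, RPL13 is lower in knockdown cells at both doses, and RPL39 overlaps in all 4 groups.

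The count of members called in irradiated over non-irradiated knockdown cells was 11, 7 and 14 without non-irradiated knockdown 1, 2 and 3, 12, 12 and 18 without irradiated knockdown 1, 2 and 3, 22 and 21 without non-irradiated control 2 and 3, and 58 without irradiated control 1. In controls it was 10, 4 and 3 without non-irradiated control 1, 2 and 3, 11 without irradiated control 1 or 2, 10 and 13 without non-irradiated knockdown 2 and 3, and 12 and 11 without irradiated knockdown 2 and 3. The other libraries moved it by less than 1.5 times. The number of all tested genes called also swung over these leave-one-out fits. It ranged from 78 to 1489 in knockdown cells and from 24 to 648 in controls, against 615 and 389 with all libraries. The swings in members called are thus not particular to these genes. The median log2 fold change of the members stayed between 0.52 and 0.74 in knockdown cells and between 0.41 and 0.71 in controls. Without both irradiated replicate 1 libraries, an alternative chosen after the data were seen, the median was 0.52 in knockdown cells and 0.41 in controls, and 50 and 32 members were called higher. With only the 6 compared libraries in the fit, 30 members were called in knockdown cells and 3 in controls. The counts of all genes called in these settings are given in the closing section.

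Per kilobase of the principal transcript, the highest mean levels over all 12 libraries were those of RPS18 (3292 CPM per kb), RPL13A (3079), RPS27 (2718), RPL7A (2666), RPLP0 (2615) and RPS24 (2458). The order depends on the length used. Per kilobase of all exons of the gene merged, these genes ranked 2, 1, 5, 3, 7 and 31, and RPS12 ranked 4 rather than 26. RPL7A and RPLP0 differed by less than 1 SD in all 4 groups, and RPS18 and RPL13A in both irradiated groups. RPS27 was above RPL7A in both irradiated groups and below it in both non-irradiated ones. RPS18 was at 3803 ± 373 CPM per kb in irradiated knockdown cells, 3913 ± 589 in irradiated controls, 2587 ± 134 in non-irradiated knockdown cells and 2866 ± 173 in non-irradiated controls (SD, n = 3). RPS10L, a copy of RPS10 at 0.440 to 2.52 CPM, was tested but has no principal transcript in the annotation and is not in this order. The lowest of the 83 tested members with a length were RPL10L (12.1 CPM per kb), RPS10 (14.8), RPL36A (33.2) and RPL7L1 (57.0). RPL26 moved up in this order. It ranked 58 of 83 in irradiated knockdown cells, at 907 ± 107 CPM per kb, and 60 in irradiated controls, at 882 ± 122. It ranked 76 in non-irradiated knockdown cells, at 69.0 ± 3.46, and 77 in non-irradiated controls, at 68.9 ± 4.68.

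Several members have paralogs that can take their place in the ribosome or are related to them in sequence. As a share of RPL22L1 and RPL22 together, RPL22L1 made up 42.0% to 51.7% in irradiated knockdown cells and 45.0% to 58.5% in irradiated controls. Without irradiation it made up 34.2% to 39.1% in knockdown cells and 38.5% to 46.4% in controls. The shares are of CPM per library, without a length correction. RPL10L made up at most 1.72% of RPL10L and RPL10 together in every library. RPL7L1 made up 8.54% to 16.4% of RPL7L1 and RPL7 together. RPS4X was called higher in irradiated over non-irradiated cells (log2 0.91 ± 0.10 SE in knockdown cells and 0.65 ± 0.10 in controls, edgeR adjusted p = 0.00159 and 0.0129), whereas RPS4Y1 was not (0.06 ± 0.14 and 0.09 ± 0.14, adjusted p = 0.847 and 0.716). The call of RPS4X in controls was lost without non-irradiated control 2 (adjusted p = 0.0818) or 3 (0.0771). RPL3L and RPL39L, paralogs of RPL3 and RPL39, had 2 reads and 1 read in all 12 libraries together.

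Members with and without a pyrimidine run at the start had similar medians. With RPL26 left out, the 55 tested members with a run near an annotated start had a median log2 fold change of 0.69 in irradiated over non-irradiated knockdown cells and 0.62 in controls. The 12 tested members with a window but no run had medians of 0.60 and 0.63, and the 16 with no window 0.64 and 0.57. RPL17, with no run near its annotated start, was at 1.16 and 1.11, and RPL39, with a long one, at -0.01 and 0.00. The annotated start need not be the one these cells use, and this comparison is a description with no test.

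PRMT5 knockdown came with small changes in these genes, apart from RPL13. Without irradiation RPL13 was the only one of 83 members called (1 lower, 0 higher), where 1.54% of all tested genes were called, 0.337% higher and 1.2% lower. With irradiation no member was called in either direction, where 0.297% of all genes were (0.00582% higher and 0.291% lower). Of the members, 3 had an unadjusted edgeR p below 0.05 with irradiation and 8 without it. The share of all tested genes below 0.05 was not computed, so these counts are a description only. DESeq2 called 1 member with irradiation, RPL13. The median log2 fold change was -0.04 with irradiation, with 61 of 83 below 0, and -0.06 without it, with 58 below 0. Knockdown libraries lay above all controls for 3 members and below them for 2 with irradiation, where 5.82% and 7.72% of all genes did so. Without irradiation they lay above for 2 members and below for 16, where 15.4% and 15.8% of all genes did so. RPL13, a large subunit protein, was at 565, 399 and 380 CPM in irradiated knockdown cells, against 1001, 927 and 783 CPM in irradiated controls. Without irradiation it was at 140, 240 and 305 CPM in knockdown cells, against 449, 665 and 599 CPM in controls. Knockdown and control libraries did not overlap at either dose, and all 6 pairs of the same replicate number went the same way, by -0.82, -1.22 and -1.04 log2 with irradiation and -1.68, -1.47 and -0.97 without it. The log2 fold change was -1.01 ± 0.26 with irradiation (SE, edgeR adjusted p = 0.204) and -1.32 ± 0.26 without it (adjusted p = 0.0333). The call without irradiation was lost when non-irradiated control 2 or 3, non-irradiated knockdown 2 or 3, irradiated control 3, or irradiated knockdown 2 or 3 was left out (adjusted p = 0.0518 to 0.146), and when genes of low count stayed in the fit (0.0581). With the pair as a block the adjusted p was 0.00173 with irradiation and 0.000171 without it. RPL13 lies at chr16:89560657-89566828 on the plus strand in GRCh38, and 4.98% of its 50-base words are shared with other genes.

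With the pair as a block in the fit, more members passed. With irradiation 2 were called higher and 2 lower, where 11.5% of all tested genes were called, 5.43% higher and 6.05% lower. Without irradiation 3 were called higher and 15 lower, where 27.8% of all genes were called, 13.7% higher and 14.1% lower. The members called at both doses were RPL13 and RPL10L, which were lower, and RPL7L1 and RPL36A, which were higher, and these 4 are 100% of the irradiated list and 22.2% of the non-irradiated one. RPL7L1, a paralog of RPL7, was at 267, 248 and 236 CPM in irradiated knockdown cells, against 241, 194 and 196 CPM in irradiated controls. Without irradiation it was at 219, 220 and 215 CPM in knockdown cells, against 181, 189 and 174 CPM in controls. Its log2 fold change in the blocked fit was 0.26 with irradiation and 0.27 without it (edgeR adjusted p = 0.0252 and 0.0097). RPL36A, a large subunit protein, was at 16.7, 19.0 and 15.4 CPM in irradiated knockdown cells, against 13.7, 14.8 and 12.5 CPM in irradiated controls, with log2 fold changes in the blocked fit of 0.32 and 0.37 (adjusted p = 0.0436 and 0.0128). RPL10L fell by 0.53 with irradiation and by 0.50 without it on the log2 scale in that fit (adjusted p = 0.0208 and 0.0125). These differences were small, and without the block none of these 3 genes passed.

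The other 14 members called in the blocked fit without irradiation were RPS26, higher, and 13 lower: RPS15, RPL22L1, RPL21, RPSA, RPL7, RPS4X, RPS3A, RPS20, RPL15, RPL9, RPL10A, RPS15A and RPS23. RPS15, a small subunit protein needed for the late maturation of that subunit, was at 128, 124 and 115 CPM in non-irradiated knockdown cells, against 237, 133 and 178 CPM in non-irradiated controls (blocked log2 fold change -0.54, edgeR adjusted p = 0.0196). Its groups did not overlap, although knockdown replicate 1 and control replicate 2 lay close together. RPL22L1 was at 230, 194 and 191 CPM in non-irradiated knockdown cells, against 295, 256 and 258 CPM in non-irradiated controls (blocked log2 fold change -0.40, adjusted p = 0.00278). RPS26, a small subunit protein near the exit of the messenger RNA, had a blocked log2 fold change of 0.30 (adjusted p = 0.0249), although its knockdown libraries at 152, 162 and 174 CPM overlapped the controls at 108, 155 and 136 CPM. In all 6 pairs the knockdown library had less of 13 of the 83 members and more of 3. The share of all tested genes that did so was not computed, so these counts are a description only. Genes of G2/M and mitosis had a mean level of 3.51 to 4.46 log2 CPM in irradiated knockdown cells against 4.70 to 5.12 in irradiated controls. The ranges overlapped in non-irradiated cells, at 3.57 to 4.73 in knockdown cells and 1.97 to 4.46 in controls. Of these 20 genes 0 were called for knockdown at either dose, with or without the pair as a block. Their part in the members' differences was not tested.

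**Figure D4:**
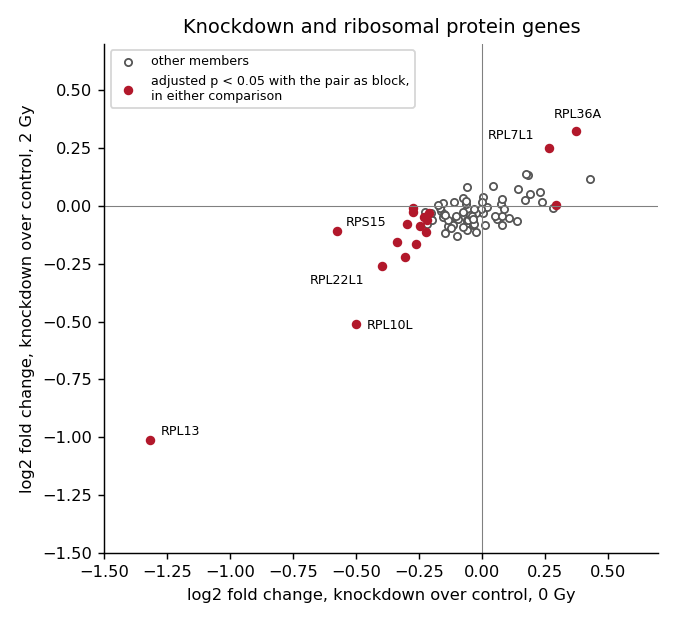
Log2 fold change of knockdown over control at 2 Gy (y axis) against the same at 0 Gy (x axis) for the 84 tested ribosomal protein genes, from the fit without the block. Filled points passed an adjusted p of 0.05 in at least 1 of the 2 comparisons once the pair was a block. RPL13 stands alone at -1.32 and -1.01, RPL36A and RPL7L1 lie at the upper right, and most genes are within 0.25 of 0.

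The test of the difference between the knockdown effects at the 2 doses called 0 of 17191 genes and 0 members with edgeR, with or without the block. No member had an unadjusted p below 0.05 in it, and DESeq2 called 1 gene, which was not a member. The difference ranged among members up to 0.47 ± 0.27 log2 (SE) for RPS15, and was 0.31 ± 0.37 for RPL13.

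The genes around ribosome production were described as lists. Of 21 tested translation factors whose messages also carry pyrimidine starts, 14 were called higher in irradiated over non-irradiated knockdown cells and 9 in controls, with 0 lower and medians of 0.59 and 0.48 log2, where 2.18% and 1.38% of all tested genes were called higher. They included EEF2, the elongation factor that moves the ribosome along (0.72 ± 0.15 and 0.63 ± 0.15 SE, edgeR adjusted p = 0.0325 and 0.0562), and PABPC1, the poly(A)-binding protein (0.93 ± 0.12 and 0.65 ± 0.12, adjusted p = 0.00279 and 0.0218). EEF1A1, which brings transfer RNA to the ribosome, was not called (0.36 ± 0.12 and 0.11 ± 0.12). Of the 78 mitochondrial ribosomal protein genes, 9 were called higher in knockdown cells (11.5%) and 3 in controls (3.85%), with medians of 0.31 and 0.47. MRPL12, which also binds the mitochondrial RNA polymerase, had the largest change, from few reads. It averaged 20.3 CPM in irradiated knockdown cells, against 2.12 CPM in non-irradiated ones, and 19.6 CPM in irradiated controls, against 4.05 CPM in non-irradiated ones (log2 3.29 ± 0.43 and 2.30 ± 0.41 SE, edgeR adjusted p = 0.0038 and 0.0215). The mean level of this list was highest in the irradiated replicate 1 libraries, at 6.02 log2 CPM in the knockdown and 6.11 in the control, against 5.48 to 5.65 in the other irradiated libraries, whereas the translation factors were level, at 9.39 to 9.48 in all 6.

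Of 48 ribosome assembly factors, 3 were called higher in irradiated over non-irradiated knockdown cells (6.25%) and 2 in controls (4.17%), with medians of 0.25 and 0.26. For this list and the next ones, the share of all tested genes called higher was 2.18% in knockdown cells and 1.38% in controls. NPM1, the nucleolar chaperone nucleophosmin, was called in both (0.77 ± 0.14 and 0.75 ± 0.14 SE, edgeR adjusted p = 0.0165 and 0.0256). Of 15 genes of RNA polymerase I, which transcribes ribosomal RNA, and its factors, 3 and 2 were called higher, POLR1D and TWISTNB in both comparisons, with medians of 0.17 and 0.20. Of 16 regulators of ribosomal protein synthesis, 1 was called in knockdown cells and 0 in controls. It was MYC, a transcription factor that drives ribosome production, with log2 fold changes of 0.73 ± 0.16 and 0.66 ± 0.16 (adjusted p = 0.0336 and 0.051). With the 83 cytosolic members at 0.65 and 0.62, the medians of these lists were lower in both comparisons, which is a description and not a test between lists. In the knockdown comparisons without the block a single gene of these lists was called, MRPS14, a small subunit protein of the mitochondrial ribosome, which was lower without irradiation (-0.57 ± 0.10, adjusted p = 0.0169) and at -0.45 ± 0.10 with it (adjusted p = 0.119). With the pair as a block and no irradiation, where 13.7% of all genes were called higher and 14.1% lower, 21 mitochondrial ribosomal protein genes were called higher and 6 lower. In that fit 16 assembly factors were higher and 1 lower, 4 regulators higher and 0 lower, 3 genes of RNA polymerase I higher and 1 lower, and 1 translation factor higher and 3 lower. With irradiation the blocked fit called 5.43% of all genes higher and 6.05% lower. It called 3 higher and 2 lower among the 78 mitochondrial ribosomal proteins, and 4 and 1 among the 48 assembly factors. Among the 16 regulators it called 2 and 1, and in the other lists 0.

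**Figure D5:**
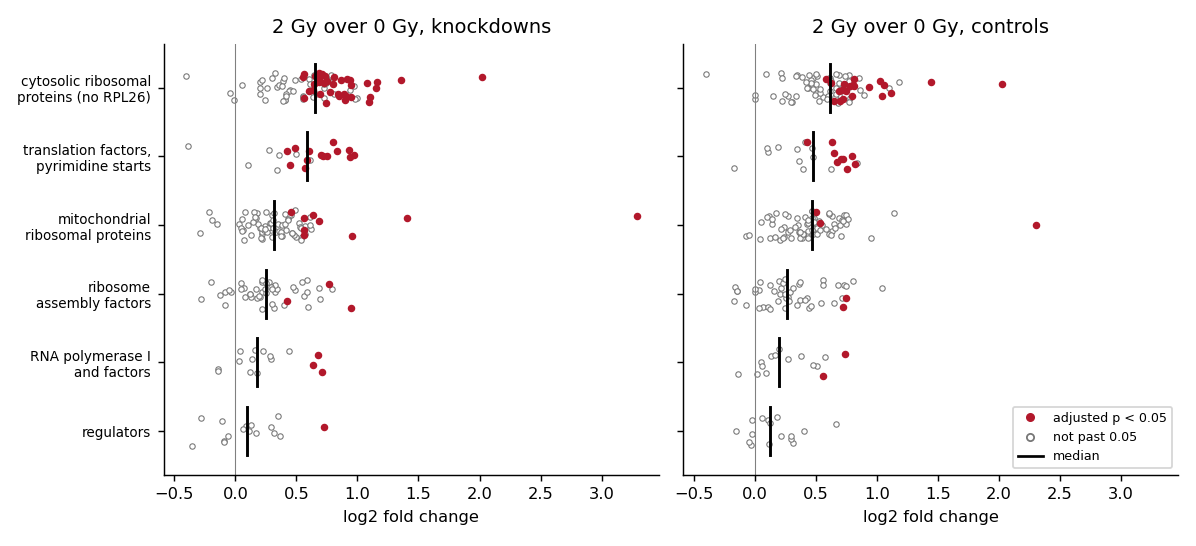
Log2 fold change of 2 Gy over 0 Gy (x axis) for every tested gene of 6 lists (y axis), in knockdown cells (left) and controls (right). Filled points passed an adjusted p of 0.05 and black bars are medians, which fall from 0.65 and 0.62 for the cytosolic ribosomal proteins to 0.10 and 0.12 for the regulators.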

How the data were processed

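Libraries came from polyadenylated RNA after Trizol extraction, per the labels' protocols. The authors deposited raw counts per gene for the 12 libraries, in 2 tables of 6. STAR 2.5, featureCounts, Subread 1.5.3, edgeR 3.20.8 and GRCh38 are named in the submitters' processing notes. The sources used here do not give their options, the strand setting, the handling of reads with several matches or the annotation release. How reads of overlapping, antisense or nearly identical genes were shared out is thus uncertain, and the shared exon positions and 50-base words are given beside the genes they touch.

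The counts were analysed with edgeR 4.0.16 in R 4.3.3. Genes passed filterByExpr (minimum count 10, minimum total 15), TMM set the scale, and all 12 libraries entered 1 robust quasi-likelihood fit of 4 group means (8 residual degrees of freedom, biological coefficient of variation 0.216). P-values were adjusted over all 17191 genes by Benjamini-Hochberg and called under 0.05. Standard errors are the absolute log2 fold change over the square root of F. DESeq2 1.42.0, other scalings, no filter, a length correction, a fit of the compared libraries alone and leaving out each library were alternatives. The scripts were tested on simulated data. Same-numbered knockdown and control libraries of a table deviated together (correlations 0.233, 0.255 and 0.296 without irradiation, 0.775, 0.613 and 0.607 with it), so the pair served as a block for the knockdown comparisons. Some differently numbered irradiated libraries also deviated together. The correlation was 0.396 for control 2 with knockdown 3 and 0.476 for control 3 with knockdown 2. All other differently numbered combinations within a table were below 0. The deviations were taken from group means of 3 libraries, so a positive correlation forces negative ones elsewhere. The negative values are therefore no further ground for the block. No label says that replicates were separate cultures, so p-values measure the spread between these libraries, which may be technical. No 2 replicates agreed within sampling noise. A count of 0 allows up to 3 counts, 0.0905 to 0.203 CPM, which covers counting error only. In bulk RNA, fewer cells of a kind and less RNA per cell cannot be told apart.

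Levels per kilobase use the APPRIS principal transcript in GENCODE 29 (the shortest of equal rank). The members and lists were chosen with earlier results of these data known. Named members were RPL26, those called in a comparison (the 20 with the smallest adjusted p), the 3 highest and 3 lowest per comparison, the 6 highest and 4 lowest levels per length, and paralog pairs, and of the lists the called genes, of which some are described here. The values of 1 member and 1 marker are not reported here.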

Additional observations from a re-analysis of the deposited data

How the results depend on the processing

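RPL26, RPL17 and RPS15A kept their irradiation calls under every alternative run. Over all named genes and settings, 1290 of 1511 values kept direction and side of the threshold, 146 lost a call, 22 gained one and 53 changed sign. The causes were not tested. Low counts limit the precision of RPS10L, RPS10 and RPL10L.

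Scaled by library size alone, which moved the median of all genes to -0.149 (knockdown cells) and -0.156 (controls), 613 genes were called for irradiation in controls. With no filter it was 592 genes with 34 members higher, and RPL13 was no longer called, which left 0 members lower for knockdown without irradiation. DESeq2 called 1438 genes and 55 members higher for irradiation in knockdown cells, 1377 and 51 in controls, 273 genes and 1 member lower for knockdown with irradiation, 1047 and 2 without, and 1 gene for the difference. With the compared libraries alone, genes called were 344, 64 (3 members higher), 1 and 1486 in the same order.

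With the pair as a replicate block, knockdown called 1974 genes with irradiation (2 members higher, 2 lower) and 4776 without (3 and 15). With a length correction added it called 2127 (2 and 2) and 4928 (5 and 15). It changed no call of the difference. Libraries with the same number in different tables did not deviate together (r = -0.15 to 0.143). That block called 1157 genes for irradiation in knockdown cells and 965 in controls, or 1308 and 1112 with the length correction.

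Without the irradiated pair of number 1, chosen after seeing the data, genes called were, in that order, 1806 (1 member lower, RPL10L), 868 (32 members higher, median 0.41), 325 and 2564 (1 member higher, 3 lower). Divided by exon length, the share of ribosomal protein reads was 10.0%, 10.4%, 7.59% and 8.34% (irradiated knockdown, irradiated control, non-irradiated knockdown, non-irradiated control).

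No value that changed sign was called, with or without the change of setting. For knockdown without irradiation RPL26 was at -0.00997 by library size, -0.0041 with TMM over other genes and -0.0028 without that pair. For irradiation in controls RPS10 and RPL39 were at -0.17 and -0.16 by library size, -0.037 and -0.018 with the number block, -0.051 and -0.070 with the length correction, -0.077 and -0.079 with both, -0.0051 and -0.0044 with the compared libraries alone, and -0.32 and -0.17 without that pair.

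Leaving out 1 library at a time, genes called ranged from 78 to 1489 (irradiation, knockdown cells), 24 to 648 (irradiation, controls), 4 to 254 (knockdown, irradiated) and 31 to 989 (knockdown, non-irradiated). Members called ranged from 7 to 58 and 3 to 29 higher for irradiation, and 0 to 1 lower for knockdown without it. The median in controls was 0.41 to 0.71. RPL26 ranged from -0.070 to 0.16 for knockdown with irradiation, -0.036 to 0.056 without, and -0.068 to 0.16 for the difference. For irradiation RPS10 ranged from -0.32 to 0.11 (knockdown cells) and -0.32 to 0.18 (controls), and RPL39 from -0.20 to 0.083 and -0.17 to 0.17. RPL22L1 ranged from -0.56 to 0.15 for knockdown with irradiation. The difference ranged from -0.51 to 0.0075 for FAU, -0.66 to 0.23 for RPS26 and -0.39 to 0.026 for RPL29.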
